A study of Mus musculus with 12 samples.

Results

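The genes described here are those of the constitutive proteasome in mouse bone marrow macrophages (BMMs), read from poly-A+ RNA-seq of 12 libraries. They were taken as every gene whose symbol begins with Psma, Psmb, Psmc, Psmd or Psme followed by a number, without the immunoproteasome genes Psmb8, Psmb9 and Psmb10, and with at least 1 CPM (the reads of a gene scaled to a common library total) in at least 2 libraries. Of 43 matching symbols, 40 remained without the immunoproteasome, and 39 of the 24421 genes listed passed the level. Psmb11, which encodes the thymus form of β5, was listed at 0 in the 12 libraries, under the 3 reads that a count of 0 allows, and was left out. The 39 genes were 8 of the α ring, 7 of the β ring, 6 ATPases and 11 non-ATPases of the 19S particle, 3 assembly chaperones that carry a Psmd symbol, and 4 activators.

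BMMs came from C57BL/6 mice whose age is not given here. Bone marrow was grown with M-CSF for 3 days, and the RANKL groups then had RANKL at 40 ng/ml for 5 days, which turns BMMs into osteoclasts. The loss of function groups were WT (Mir182+/+LysMcre(+)) and Mir182ΔM/ΔM (Mir182flox/floxLysMcre(+)), each without RANKL (basal) and with RANKL. The gain of function groups, basal only, were Control (LysMcre(+)) and Mir182mTg (LSL-Mir182LysMcre(+)), in which Cre removes a stop cassette before a Mir182 transgene. Every group carried LysMcre(+), Cre under the lysozyme M promoter, so recombination followed the myeloid cells that use that promoter. Each of the 6 groups had 2 replicates. The authors describe the 2 replicates of a condition as independent and biological. They were separate libraries, and nothing states how many mice stood behind each, so the p-values measure the spread between these libraries. Where the replicate number is fitted as a block, they measure the spread left once the difference between replicate numbers is removed.

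The proteasome degrades proteins tagged with ubiquitin. Its 20S core is a barrel of outer α rings and inner β rings, and only β1 (Psmb6), β2 (Psmb7) and β5 (Psmb5) cut protein. The 19S particle caps the barrel: its ATPases (Psmc genes) unfold the substrate and its non-ATPases (Psmd genes) bind and remove ubiquitin. The activators PA28αβ (Psme1 and Psme2), PA28γ (Psme3) and PA200 (Psme4) open the core without needing ubiquitin. In the immunoproteasome, which interferon-γ induces, Psmb9, Psmb10 and Psmb8 take the places of β1, β2 and β5. In osteoclasts, the proteasome is known for degrading IκB downstream of RANK and so for releasing NF-κB.

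Reads on genes ranged from 24951280 to 33050619 per library, and 3 reads were worth between 0.0908 and 0.120 CPM. The 6 macrophage markers fixed for the check (Csf1r and Cd68 among them) summed to between 6060.3 and 8557 CPM in every library. The 6 osteoclast markers (Acp5 and Ctsk among them) summed to between 39.6 and 74.8 CPM in basal libraries, to 9892 and 10230.5 CPM in WT with RANKL, and to 3051 and 3044 CPM in Mir182ΔM/ΔM with RANKL. The 4 listed neutrophil markers of 5 summed to between 41.0 and 79.9 CPM without RANKL and between 3.22 and 11.7 CPM with it. The 3 T cell markers stayed under 1 CPM each, the 3 B cell markers summed to at most 3.67 CPM, and the 4 erythroid markers were at 0. The 4 stromal markers summed to between 1.27 and 29.9 CPM and were higher in replicate 2 of every group. The 3 endothelial markers, chiefly Kdr, summed to 107 and 106 CPM in Mir182ΔM/ΔM with RANKL and to 24.4 and 26.5 CPM in WT with RANKL. In these bulk libraries, fewer cells of a type and less RNA per cell cannot be told apart, and the part of these cells in the results below was not tested.

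Fold changes are given as log2 of the ratio on the log2(CPM + 1) scale with their SE after the sign ±, from limma with 2 libraries per group and a spread shared by 4 groups, and p is adjusted over all genes tested (Benjamini-Hochberg, threshold 0.05). The tests were two-sided. The deposited CPM hold no correction for library composition. With TMM factors, which equalise the bulk of the genes, the median log2 fold change of all genes for RANKL in WT moved from 0.19 to -0.0044, and that of Mir182ΔM/ΔM against WT with RANKL from -0.14 to -0.0037. The median for RANKL in Mir182ΔM/ΔM was 0.051 on CPM and 0.016 with TMM. Both readings are therefore given where a call depends on them. Per the labels, replicates 1 and 2 were processed with different tools, and their differences repeated from group to group, so a fit with the replicate number as a block is given wherever it changes a call.

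The targeted gene was read first. Mir182 was at 0 in 9 libraries, at 0.0370 CPM (1 read) in basal Mir182ΔM/ΔM replicate 1, and at 2.39 and 4.40 CPM in Mir182mTg. Poly-A+ libraries hardly hold a microRNA precursor, so these values checked the transgene label and could not check the deletion. The mature microRNA is shown for its seed (bases 2 to 8, in capitals), through which it pairs with 3′ UTRs. RefSeq places it at chr6:30165962-30165986 on the minus strand of GRCm38.p6.
mmu-miR-182-5p: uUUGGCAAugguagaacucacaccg
The complement of that seed, TTGCCAA, was in the longest 3′ UTR of 0 of the 39 proteasome genes and in 10.9% of the 20997 genes with a 3′ UTR in GENCODE vM21. Proteasome 3′ UTRs were shorter, with a median of 296 bases against 962 for all genes. This search was added with the results known, and says only that these letters are not in those UTRs.

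In basal WT BMMs, levels per length (CPM per kilobase of the gene length that the RPKM in the files imply) spread widely, although the finished core and base hold their subunits in equal number. The non-ATPase Psmd8 (Rpn12) was highest, at 228 and 208 CPM per kilobase in the 2 replicates. Psmb6 followed at 148 and 158 CPM per kilobase, above Psmb1 at 125 and 136 in both libraries. Psmb2, at 149.5 and 127 CPM per kilobase, overlapped both. At the low end of the ring subunits, Psma3 was at 34.8 and 31.4, Psma5 at 27.1 and 38.0 and Psmb5 at 26.2 and 41.7 CPM per kilobase, values that all lie within the replicate gap of Psmb5. The 6 ATPases were closer together, from 57.0 for Psmc6 to 101 for Psmc3 as means. The assembly chaperones were low: Psmd5 had a mean of 23.6, Psmd10 of 18.7 and Psmd9 of 11.9 CPM per kilobase. Among the activators, Psme1 had a mean of 112, Psme2 of 64.5, Psme3 of 37.5 and Psme4 of 25.3 CPM per kilobase. Psma8, the testis form of α4 also called α4s, was at 1.22 CPM per kilobase while its somatic counterpart Psma7 was at 60.3.

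Some of this spread followed the replicate number. Replicate 2 was above replicate 1 in all 6 groups for 16 genes and below it in all 6 for 9. Psmb4 had the largest gap, with replicate 2 at 1.46 to 1.64 times replicate 1. Psma5, Psmb3, Psmb5 and Psme2 were at least 1.27 times higher in replicate 2 of every group, and Psmb2 lay between 0.845 and 0.861 times replicate 1. The gap between replicates sets the wide SE of these genes in the fit without the block. Psme2 shares near-identical sequence with Psme2b (21.8 and 28.4 CPM in basal WT), and reads could have been split between them, so its level is uncertain.

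Psme1 (chr14:55578123-55581529, plus strand) and Psme2 (chr14:55587441-55591113, minus strand) lie 5911 bases apart on chromosome 14 in GENCODE vM21 (GRCm38, the build also called mm10), and Psmb5 (chr14:54614119-54618022) is on the same chromosome. Psmd10 is on the X chromosome (chrX:140948429-140956728, minus strand). The 39 genes sit on 16 chromosomes. Their promoters (250 bases before to 50 after the start, RefSeq, GRCm38.p6) were searched on both strands for letters of transcription factor motifs. A promoter was found for 32 of the 39. Psma8, Psmb1, Psmb2, Psmb7, Psmc3, Psmd3 and Psmd7 had no entry. The antioxidant response element bound by Nrf1 (Nfe2l1) and Nrf2 (Nfe2l2), searched as TGACNNNGC, was in a promoter of 6 of the 32 genes (Psmb5, Psmb6, Psmc6, Psmd12, Psmd9 and Psme4) and in 14.0% of the 27025 gene symbols in the table, each counted as holding a motif if any of its promoters did. CCAAT, the box of the factor NF-Y, was in 12 of 32 and in 41.1% of the symbols. The nuclear respiratory factor 1 motif CGCATGCG was in 1 of 32 (Psma2) and in 2.07% of the symbols. GAAANNGAA, the core of the interferon-stimulated response element, was added after the values were seen. It was in 6 of 32 (Psmb3, Psmb4, Psmc2, Psmd4, Psmd9 and Psme1) and in 9.76% of the symbols. These promoters are printed with matches in capitals, for the gene with the largest RANKL response (Psmd10, CCAAT), a catalytic subunit (Psmb5, antioxidant response element), an activator not called higher with RANKL (Psme4, antioxidant response element) and the activator with the interaction called on CPM (Psme1, GAAANNGAA).
Psmd10 promoter (chrX:140956662-140956961, minus strand): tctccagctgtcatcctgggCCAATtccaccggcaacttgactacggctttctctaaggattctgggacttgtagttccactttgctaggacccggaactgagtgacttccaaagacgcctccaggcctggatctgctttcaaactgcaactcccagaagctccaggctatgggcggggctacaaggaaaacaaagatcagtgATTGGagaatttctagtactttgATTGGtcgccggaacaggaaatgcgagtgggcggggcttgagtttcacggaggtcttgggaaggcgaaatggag
Psmb5 promoter (chr14:54617946-54618245, minus strand): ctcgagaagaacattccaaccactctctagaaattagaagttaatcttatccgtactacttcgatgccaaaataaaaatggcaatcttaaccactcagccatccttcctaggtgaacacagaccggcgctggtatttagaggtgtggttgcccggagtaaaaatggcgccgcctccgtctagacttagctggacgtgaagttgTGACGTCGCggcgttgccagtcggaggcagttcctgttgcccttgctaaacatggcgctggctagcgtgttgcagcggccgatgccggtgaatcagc
Psme4 promoter (chr11:30771525-30771824, plus strand): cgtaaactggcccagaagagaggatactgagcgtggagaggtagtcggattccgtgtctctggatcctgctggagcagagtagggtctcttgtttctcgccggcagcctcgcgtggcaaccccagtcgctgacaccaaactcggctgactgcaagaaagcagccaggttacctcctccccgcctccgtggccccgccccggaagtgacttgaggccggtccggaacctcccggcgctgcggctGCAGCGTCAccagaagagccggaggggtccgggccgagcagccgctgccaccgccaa
Psme1 promoter (chr14:55578244-55578543, plus strand): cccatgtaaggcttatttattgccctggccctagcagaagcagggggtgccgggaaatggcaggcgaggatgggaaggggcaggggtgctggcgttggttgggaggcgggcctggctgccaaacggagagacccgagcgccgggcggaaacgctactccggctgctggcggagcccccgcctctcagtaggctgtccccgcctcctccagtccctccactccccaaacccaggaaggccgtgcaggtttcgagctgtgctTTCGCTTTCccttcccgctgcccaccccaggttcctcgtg
Psmd10 held 3 CCAAT matches, and the single matches of Psmb5, Psme4 and Psme1 began 47 bases before, 7 bases before and at base 11 after the start. A match is a description of letters and not a binding site.

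Summed over the 39 genes, the proteasome took 3867 and 3941 CPM in basal WT, 4740.3 and 4978 CPM in WT with RANKL, 4016 and 4113 CPM in basal Mir182ΔM/ΔM and 5135 and 5474 CPM in Mir182ΔM/ΔM with RANKL. Both RANKL groups lay above both basal groups, and the Mir182ΔM/ΔM RANKL libraries lay above the WT RANKL libraries. Control had 4972 and 5137 CPM and Mir182mTg 4958 and 5011 CPM, which overlap. With RANKL the sum was 1.24 times the basal mean in WT and 1.31 times in Mir182ΔM/ΔM. With TMM factors over the 12 libraries, these ratios were 1.08 and 1.27.

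**Figure D1:**
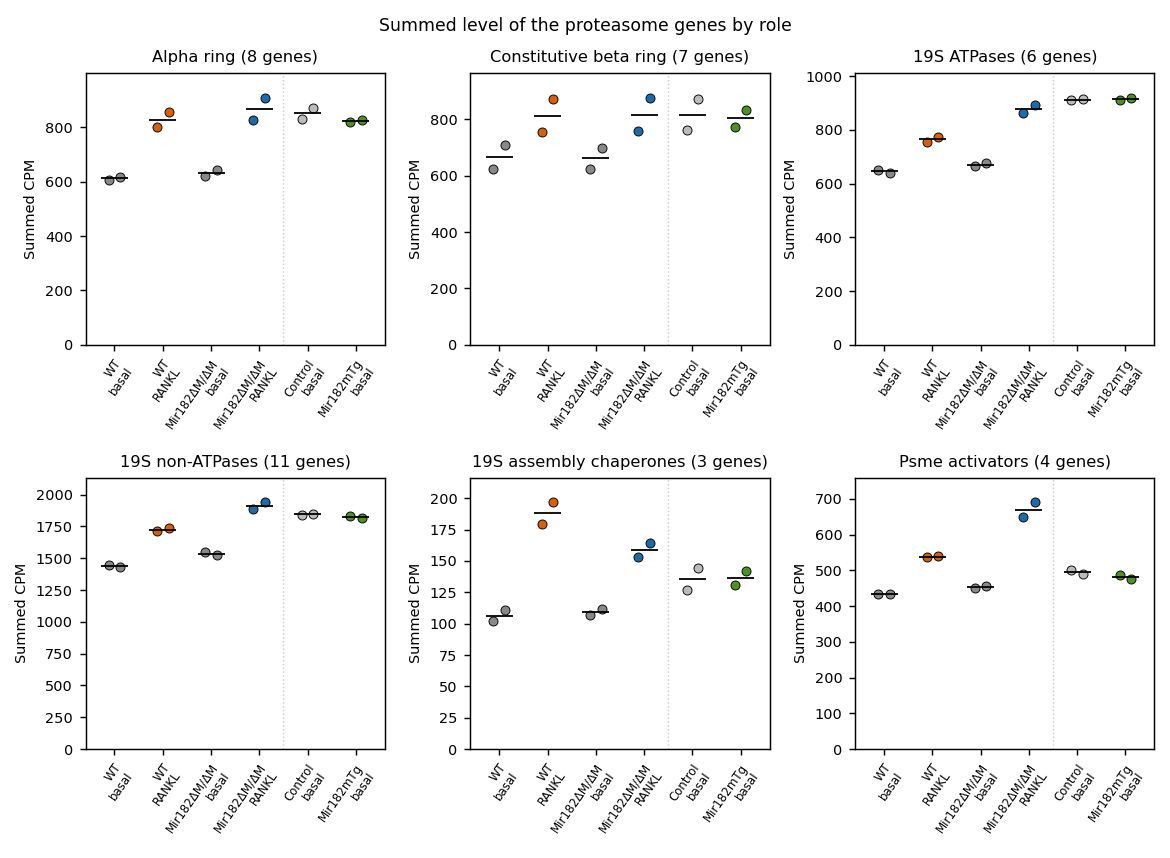
Summed CPM (vertical axis, from 0) of the proteasome genes of each role in the 6 groups, 2 points per group for replicates 1 and 2 and a bar for their mean. In every role both RANKL libraries of a genotype lie above its basal libraries, the assembly chaperones are highest in WT with RANKL (179.7 and 197 CPM) and the activators in Mir182ΔM/ΔM with RANKL (649.6 and 691 CPM).

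The first comparison asked what RANKL does to these genes in WT cells. Of the 39 genes, 20 rose and 0 fell, with a median log2 fold change of 0.34. Of all 11691 genes tested, 40.6% rose and 22% fell. With the replicate block, 34 rose and 2 fell, against 52.8% and 29% of all genes. With TMM factors, 9 rose and 3 fell and the median was 0.13, against 28.8% and 30.5% of all genes. With TMM and the block, 24 rose and 6 fell, against 39.6% and 40.3%. At an unadjusted p under 0.05, limma had 2 genes lower on CPM, and edgeR on the recovered reads called 3 lower. On CPM 51.3% of the 39 genes thus rose against 40.6% of all genes, and with TMM 23.1% against 28.8%. With TMM and the block the 24 that rose were a larger share than the 39.6% of all genes. Whether the 39 genes rose more often than all genes therefore depended on the reading.

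Psmd10, which encodes gankyrin, a chaperone of the 19S base, had the largest response. It was at 26.9 and 27.5 CPM in basal WT and at 94.3 and 96.7 CPM with RANKL. The groups lie far apart, by a log2 fold change of 1.77 ± 0.070 and adjusted p = 1.30e-06. The TMM value was 1.57. The other 2 chaperones moved little on CPM: Psmd5 (S5b) had 0.26 ± 0.10 and Psmd9 (p27) 0.16 ± 0.10, called only with the block (adjusted p = 4.82e-05 and 0.0243), and neither passed with TMM and the block (0.303 and 0.596).

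Of the 3 catalytic β subunits, 1 was called on CPM. Psmb7, the trypsin-like β2, went from 84.3 and 92.9 CPM in basal WT to 151 and 175 CPM with RANKL. It was also the single gene of the 7 in the β ring to pass, at a log2 fold change of 0.87 ± 0.12 and adjusted p = 0.000502. Psmb5, the chymotrypsin-like β5 that bortezomib blocks, was at 22.8 and 36.3 CPM and then at 28.7 and 45.2 CPM. Each replicate was higher with RANKL but the groups overlap, since the replicates differ by more: the log2 fold change was 0.31 ± 0.32, with adjusted p = 0.423 and 5.92e-05 with the block, or 0.0974 with TMM and the block. Psmb6, the caspase-like β1, was at 154 and 164 CPM before and 157 and 170.3 CPM after RANKL. Its groups overlap, its log2 fold change was 0.044 ± 0.068 on CPM and it was lower with TMM and the block (-0.16, adjusted p = 0.000226). The 4 other β genes had log2 fold changes from 0.093 (Psmb1) to 0.46 (Psmb3), with 0 called on CPM. With the block 6 of the 7 β genes passed.

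In the α ring, on CPM 5 of its 8 genes passed and with the block 8 did, with log2 fold changes from 0.19 (Psma4) to 0.71 (Psma3). Psma6 (α1) rose from 100.3 and 101 to 162 and 165 CPM, giving a log2 fold change of 0.70 ± 0.061 and adjusted p = 6.11e-05. Psma3 (α7) rose from 49.4 and 44.6 to 78.9 and 76.4 CPM, giving a log2 fold change of 0.71 ± 0.071 and adjusted p = 0.000114. Psma8 rose from 2.02 and 2.12 to 3.79 and 3.74 CPM (0.63 ± 0.093, adjusted p = 0.000821), a small level beside the other α genes. With TMM, Psma3, Psma6 and Psma8 were the α genes still called.

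In the 19S particle, 4 of 6 ATPases and 8 of 11 non-ATPases rose on CPM. With TMM 9 proteasome genes of any role rose, Psma3, Psma6 and Psma8 among them, so fewer than 8 non-ATPases kept their call. The ATPases had small changes, from 0.029 for Psmc3 (Rpt5) to 0.38 for Psmc4 (Rpt3), and with TMM 0 rose and Psmc3 was lower (-0.18, adjusted p = 0.0349). Among non-ATPases, Psmd7 (Rpn8) rose from 111 and 100.3 to 159.7 and 159.9 CPM and Psmd3 (Rpn3) from 92.3 and 100.5 to 132 and 144 CPM, by log2 fold changes of 0.59 ± 0.072 and 0.51 ± 0.072. Psmd14 (Rpn11), the deubiquitinase of the lid, had 0.36 ± 0.11 with adjusted p = 0.0275 on CPM and 0.274 with TMM. Psmd8, the subunit with the highest level per length, had the opposite sign: it was at 344 and 315 CPM in basal WT and at 293 and 270.2 CPM with RANKL, groups that do not overlap. Its log2 fold change of -0.23 ± 0.090 missed the threshold on CPM (adjusted p = 0.0602) and passed with the block (3.41e-07) and with TMM (0.00417).

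The 4 activators did not share a direction. Psme3 (PA28γ), a nuclear activator, rose from 108 and 88.3 to 193 and 161 CPM, giving a log2 fold change of 0.85 ± 0.15 and adjusted p = 0.00190. Psme2 (PA28β) was at 51.9 and 74.1 CPM and then at 81.8 and 119 CPM (0.66 ± 0.29, adjusted p = 0.0863, and 2.31e-12 with the block). Psme1 (PA28α), its partner in the same ring, was at 109 and 111 CPM and at 113 and 116 CPM. That difference was not called on CPM (0.064 ± 0.068, adjusted p = 0.439) and the gene was lower with TMM and the block (-0.14, adjusted p = 0.000995). Psme4 (PA200) was at 164 and 161 CPM and at 148 and 144 CPM, giving a log2 fold change of -0.16 ± 0.059 that missed the threshold (adjusted p = 0.0522) and passed with the block (0.000304) and with TMM (0.00115).

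**Figure D2:**
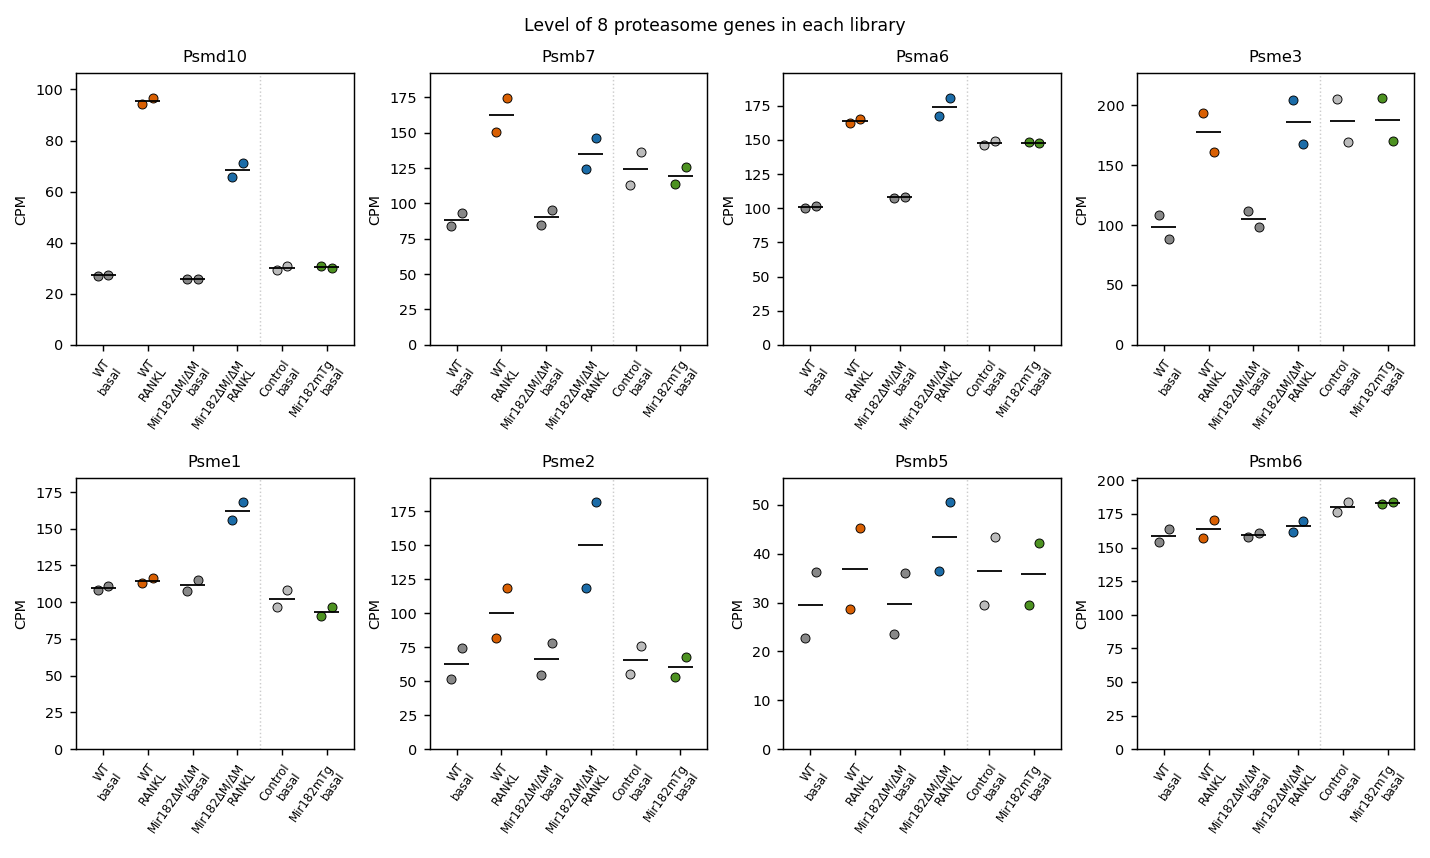
CPM (vertical axis, from 0) of 8 proteasome genes in the 6 groups, 2 points per group for replicates 1 and 2 and a bar for their mean. Psmd10 lies at 94.3 and 96.7 CPM in WT with RANKL and at 65.6 and 71.1 CPM in Mir182ΔM/ΔM with RANKL, while Psme1 is highest in Mir182ΔM/ΔM with RANKL (156 and 168 CPM) and Psmb6 stays between 154 and 184 CPM.

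In Mir182ΔM/ΔM cells RANKL raised 23 of the 39 genes and lowered 0, with a median log2 fold change of 0.38 (0.35 with TMM). Of all genes, 30.4% rose and 26.4% fell. With the block 34 rose and 0 fell, against 42.7% and 36.3% of all genes. With TMM 23 rose and 0 fell, against 28.3% and 28.6% of all genes. The share of the 39 genes that rose was 59.0% on CPM. No gene was lower at an unadjusted p under 0.05 with limma, and edgeR on the recovered reads called 23 higher and 0 lower.

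Psmd10 again had the largest response, from 25.8 and 25.9 to 65.6 and 71.1 CPM, giving a log2 fold change of 1.37 ± 0.070 and adjusted p = 5.54e-06. Psme2 followed, from 54.7 and 78.1 to 119 and 181.7 CPM, giving a log2 fold change of 1.16 ± 0.29 and adjusted p = 0.0123. Without basal Mir182ΔM/ΔM replicate 1 or without RANKL-treated Mir182ΔM/ΔM replicate 2 the call was lost, with adjusted p of 0.0714 to 0.0766. Psme3 rose from 112 and 98.3 to 205 and 167 CPM (0.81 ± 0.15, adjusted p = 0.00267). Psme1 rose from 108 and 115 to 156 and 168 CPM (0.53 ± 0.068, adjusted p = 0.000458). Psme4 was at 175 and 165 CPM basal and 170.2 and 174 CPM with RANKL, groups that overlap (0.013 ± 0.059, adjusted p = 0.866).

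In the rings, Psma6 rose from 108 and 108 to 167 and 181 CPM (0.68 ± 0.061, adjusted p = 7.96e-05) and 5 of 8 α genes passed. Psmb7 rose from 84.9 and 95.5 to 124 and 146 CPM (0.58 ± 0.12, adjusted p = 0.00431), and with Psmb2 it made up the 2 of 7 β genes called on CPM. Psmb5 went from 23.6 and 36.0 to 36.5 and 50.6 CPM, where the groups just fail to overlap (0.54 ± 0.32, adjusted p = 0.187, and 3.82e-08 with the block). Psmb6 was at 158 and 161 CPM and then at 162 and 169.9 CPM (0.056 ± 0.068, adjusted p = 0.514). In the 19S particle 5 of 6 ATPases and 7 of 11 non-ATPases rose. Among the ATPases Psmc5 (Rpt6) rose from 74.9 and 88.9 to 114 and 133 CPM (0.59 ± 0.12, adjusted p = 0.00524). Psmc3, which was not called in WT on CPM, had 0.23 ± 0.059 with adjusted p = 0.0125. Psmd8 was at 344 and 309 CPM and then at 362 and 325 CPM, which overlap (0.075 ± 0.090, adjusted p = 0.504, and 0.0233 with the block).

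**Figure D3:**
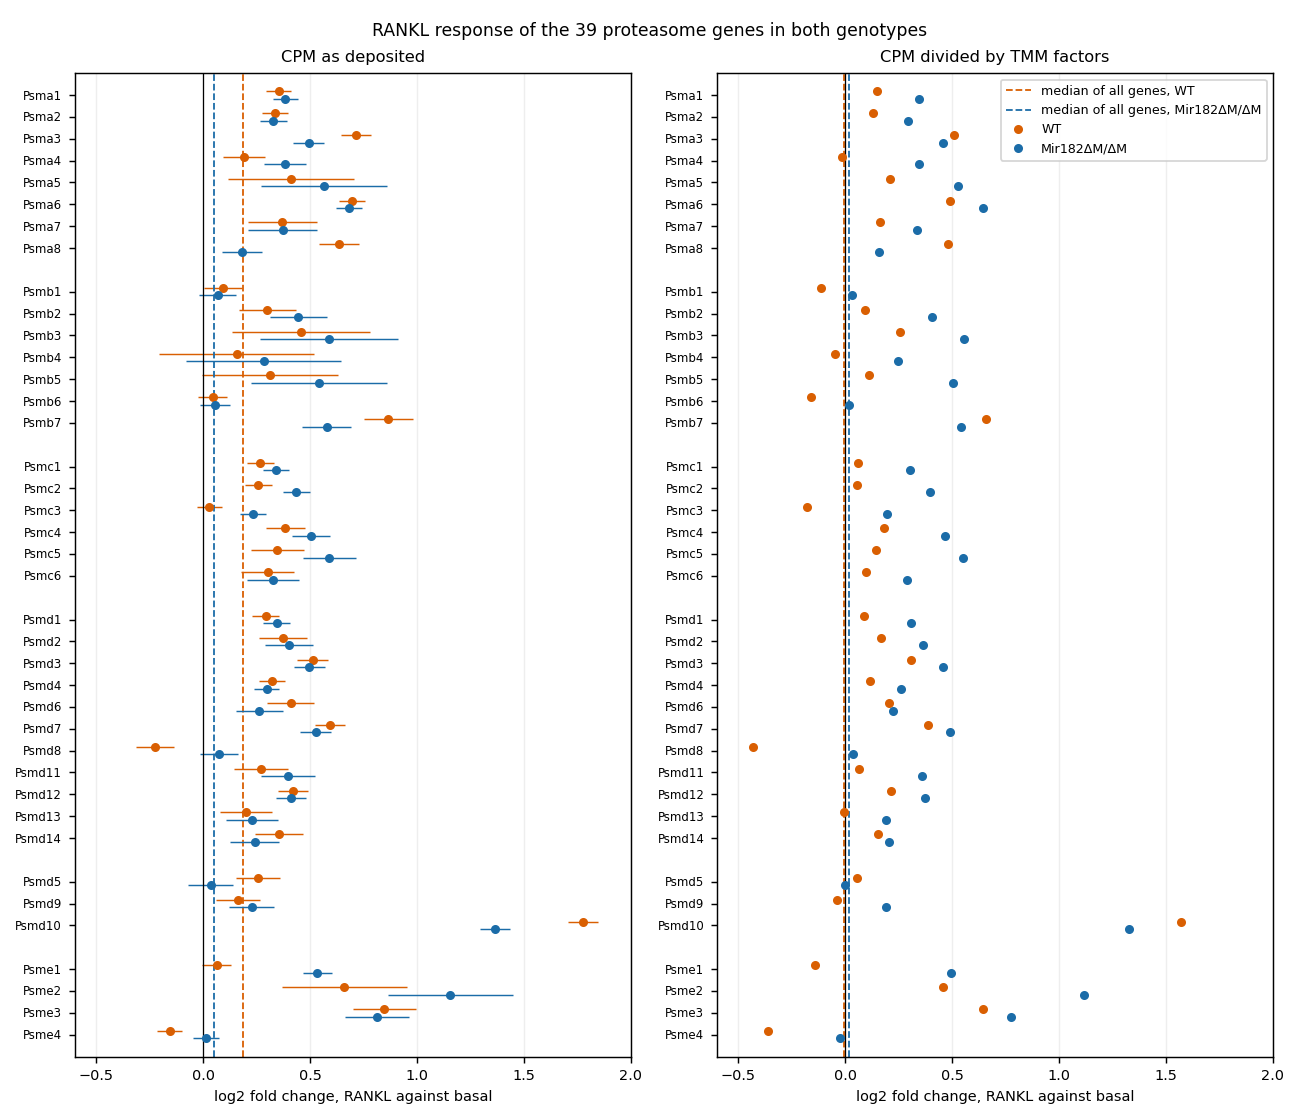
Log2 fold change with RANKL (horizontal axis) of each of the 39 genes, grouped by role, in WT (orange) and Mir182ΔM/ΔM (blue). The left panel has CPM as deposited with SE bars and the right panel CPM divided by TMM factors, and dashed lines mark the median of all genes. With TMM the WT points move to the left by about the shift of that median, while Psmd10 stays farthest to the right in both genotypes.

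The next comparison set Mir182ΔM/ΔM against WT, both with RANKL. On CPM 6 of the 39 genes were higher in Mir182ΔM/ΔM (Psmc2, Psmc3, Psmd1, Psmd8, Psme1 and Psme4) and 2 were lower (Psma8 and Psmd10), with a median log2 fold change of 0.12. Of all genes, 14.3% were higher and 30.9% lower. With the block the counts were 24 and 5, against 23.4% and 49.7%. With TMM they were 16 and 2, against 20.9% and 20.2%. Under both changes they were 32 and 3, against 35.1% and 34.3%. The share of the 39 genes that was higher on CPM, 15.4%, was thus near that of all genes, while with TMM it was 41.0%. The count higher on CPM was smaller without any single library of the groups compared, and the shares of all genes called higher and lower were smaller too. The osteoclast markers differed between the same libraries, as given above, and their part was not tested.

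PA28αβ carried the largest differences upward. Psme1 was at 113 and 116 CPM in WT and at 156 and 168 CPM in Mir182ΔM/ΔM, giving a log2 fold change of 0.49 ± 0.068 and adjusted p = 0.00105. Psme2 was at 81.8 and 119 CPM and at 119 and 181.7 CPM. Within each replicate number it was higher in Mir182ΔM/ΔM, but the replicates lie so far apart that the call needs the block: the log2 fold change was 0.57 ± 0.29, with adjusted p = 0.155 and 5.39e-11 with the block. Psme4 was at 148 and 144 CPM and at 170.2 and 174 CPM (0.24 ± 0.059, adjusted p = 0.0159), and its call was lost without any single library of the 4, with adjusted p of 0.0512 to 0.0872. Psme3 was not called on CPM, at 193 and 161 CPM and 205 and 167 CPM (0.067 ± 0.15, adjusted p = 0.740). With TMM and the block it passed (0.22, adjusted p = 3.02e-05).

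Psmd10 was lower in Mir182ΔM/ΔM with RANKL, at 65.6 and 71.1 CPM against 94.3 and 96.7 CPM in WT, groups that lie well apart. The log2 fold change was -0.48 ± 0.070 with adjusted p = 0.00141 (-0.33 with TMM, adjusted p = 0.00823). Psma8 was at 2.04 and 1.85 CPM against 3.79 and 3.74 CPM, giving a log2 fold change of -0.70 ± 0.093 and adjusted p = 0.000930. Psmb7 was at 124 and 146 CPM against 151 and 175 CPM, which do not overlap, and was called only with the block (-0.26 ± 0.12, adjusted p = 0.103 and 1.92e-06). Psmb5 had 0.25 ± 0.32 (adjusted p = 0.562, with the block 0.000870) and Psmb6 0.017 ± 0.068 (adjusted p = 0.860). With TMM and the block Psmb6 was higher in Mir182ΔM/ΔM (0.17, adjusted p = 0.000196). None of the 3 catalytic subunits was called on CPM, and Psmb7 alone had a value below 0.

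In the 19S particle, all 6 ATPases had positive values, from 0.12 to 0.28, of which 2 passed on CPM, 5 with TMM and 6 with the block. Psmc2 (Rpt1) was at 135 and 137 CPM in WT and at 159 and 172 CPM in Mir182ΔM/ΔM, giving a log2 fold change of 0.28 ± 0.062 and adjusted p = 0.00929. Of the 11 non-ATPases, 9 had positive values and 2 (Psmd6 and Psmd7) negative ones, from -0.078 to 0.29, and 2 passed on CPM. Psmd6 (Rpn7) was at 76.5 and 88.6 CPM and at 73.0 and 83.1 CPM, and Psmd7 at 159.7 and 159.9 CPM and at 154 and 156 CPM. Psmd8 was at 293 and 270.2 CPM and at 362 and 325 CPM (0.29 ± 0.090, adjusted p = 0.0366). Psmd1 (Rpn2), a scaffold of the base, was at 247 and 241 CPM and at 289 and 284 CPM (0.23 ± 0.064, adjusted p = 0.0224). Leaving out WT replicate 1 or Mir182ΔM/ΔM replicate 2 took Psmc2 to adjusted p of 0.0529 to 0.0574, leaving out any of the 4 libraries took Psmd1 to 0.0682 to 0.106, and Psmd8 reached 0.0584 to 0.181 without WT replicate 1 or 2 or Mir182ΔM/ΔM replicate 1. In the α ring, Psma8 apart, values ran from -0.11 (Psma3) to 0.23 (Psma4), with 0 of 7 called on CPM and 4 with TMM.

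Whether RANKL acted differently in the 2 genotypes was tested with the interaction, which is the RANKL log2 fold change in Mir182ΔM/ΔM minus that in WT. It called 1 gene with a larger value in Mir182ΔM/ΔM (Psme1) and 2 with a smaller one (Psmd10 and Psma8), against 7.44% and 17.1% of all genes. With the block it called 11 and 6, against 16.1% and 42.8%. With TMM it called 5 (Psmc2, Psmc3, Psmd8, Psme1 and Psme4) and 0, against 10.6% and 10.9%, with 2 lower at an unadjusted p under 0.05 and 0 lower by edgeR on the recovered reads. Under TMM together with the block it called 31 and 2, against 27.1% and 24.8%. The median over the 39 genes was 0.027 on CPM, where that of all genes was -0.15, and 0.20 with TMM, where that of all genes was 0.0053.

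For Psme1 the interaction was 0.47 ± 0.10 with adjusted p = 0.0116, and 0.64 with TMM (adjusted p = 0.00349). Without basal Mir182ΔM/ΔM replicate 1 it was 0.42 with adjusted p = 0.0513. Psme2 had 0.50 ± 0.41, with adjusted p = 0.439 and 2.17e-07 with the block. For Psmd10 the interaction was -0.41 ± 0.10 with adjusted p = 0.0231, -0.24 with TMM (adjusted p = 0.135) and called again with TMM and the block (0.00559). Leaving out one library lost the Psmd10 call in 7 of 8 cases, with adjusted p of 0.0554 to 0.0833, the exception being Mir182ΔM/ΔM with RANKL replicate 2. For Psma8 it was -0.45 ± 0.13 with adjusted p = 0.0448, and the call was lost with TMM (0.142) and in each of the 8 cases that left out a library. Psmb5 had 0.23 ± 0.45, Psmb6 0.012 ± 0.10 and Psmb7 -0.29 ± 0.16, with adjusted p of 0.763, 0.950 and 0.255 on CPM and of 0.0232, 0.846 and 7.97e-05 with the block. With TMM and the block their values were 0.39, 0.18 and -0.12, with adjusted p of 0.000864, 0.00361 and 0.0498. Psme3 had -0.035 ± 0.21 (adjusted p = 0.929), and 0.13 with TMM and the block (adjusted p = 0.0343). Psme4 had 0.17 ± 0.084 (adjusted p = 0.195, with the block 0.00547), and 0.34 with TMM (adjusted p = 0.0232).

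Without RANKL, on CPM limma called 0 of the 39 genes higher and 0 lower, against 2.71% and 1.1% of all genes. At an unadjusted p under 0.05, 3 were higher and 1 lower, and edgeR on the recovered reads also called 0. With the block 9 were higher and 1 lower, against 18.6% and 12.7% of all genes. With TMM and the block they were 5 and 1, against 16.7% and 14.5%. The median log2 fold change was 0.041. Psmd14 had the highest value, at 84.7 and 72.1 CPM in WT and 104 and 92.4 CPM in Mir182ΔM/ΔM, groups that just fail to overlap (0.32 ± 0.11, adjusted p = 0.212 and 1.00e-06 with the block). Psmb1 was the gene that was lower with the block (-0.10, adjusted p = 0.0354). Psmb5, Psmb6 and Psmb7 had 0.017 ± 0.32, 0.0053 ± 0.068 and 0.024 ± 0.12. Psme1, Psme2, Psme3 and Psme4 had 0.023 ± 0.068, 0.075 ± 0.29, 0.10 ± 0.15 and 0.066 ± 0.059, with Psme3 alone called by the block (adjusted p = 0.0356). In CPM, Psme1 was at 109 and 111 in basal WT and 108 and 115 in basal Mir182ΔM/ΔM, and Psme2 at 51.9 and 74.1 and 54.7 and 78.1, groups that overlap.

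In the gain of function experiment, edgeR called 0 of the 39 genes higher and 0 lower in Mir182mTg than in Control, with 0.0993% and 0.157% of the 12081 genes tested. At an unadjusted p under 0.05 the counts were also 0, and DESeq2 and limma called 0. With the block 0 were higher and 1 was lower, against 6.94% and 8.15%. That gene was Psme1, at 96.6 and 108 CPM in Control and 90.3 and 96.6 CPM in Mir182mTg, which overlap by a narrow margin. Its log2 fold change was -0.14 ± 0.093, and with the block the SE was 0.0371 and adjusted p = 0.0200 (edgeR). Psme2 was at 55.5 and 76.0 CPM in Control and 53.3 and 68.0 CPM in Mir182mTg (-0.13 ± 0.19, adjusted p = 0.0793 with the block). Psmd10 was at 29.1 and 31.1 CPM in Control and 30.7 and 30.0 CPM in Mir182mTg (0.0040 ± 0.087), and Psme3 and Psme4 had log2 fold changes of -0.0010 ± 0.14 and -0.017 ± 0.071. Psmb5, Psmb6 and Psmb7 had -0.032 ± 0.25, 0.014 ± 0.069 and -0.069 ± 0.12. Over the 39 genes the log2 fold change ran from -0.34 (Psma8, at 4.25 and 3.63 CPM in Control and 3.21 and 3.04 CPM in Mir182mTg) to 0.11 (Psmd9), with a median of -0.039 where that of all genes was -0.0016.

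**Figure D4:**
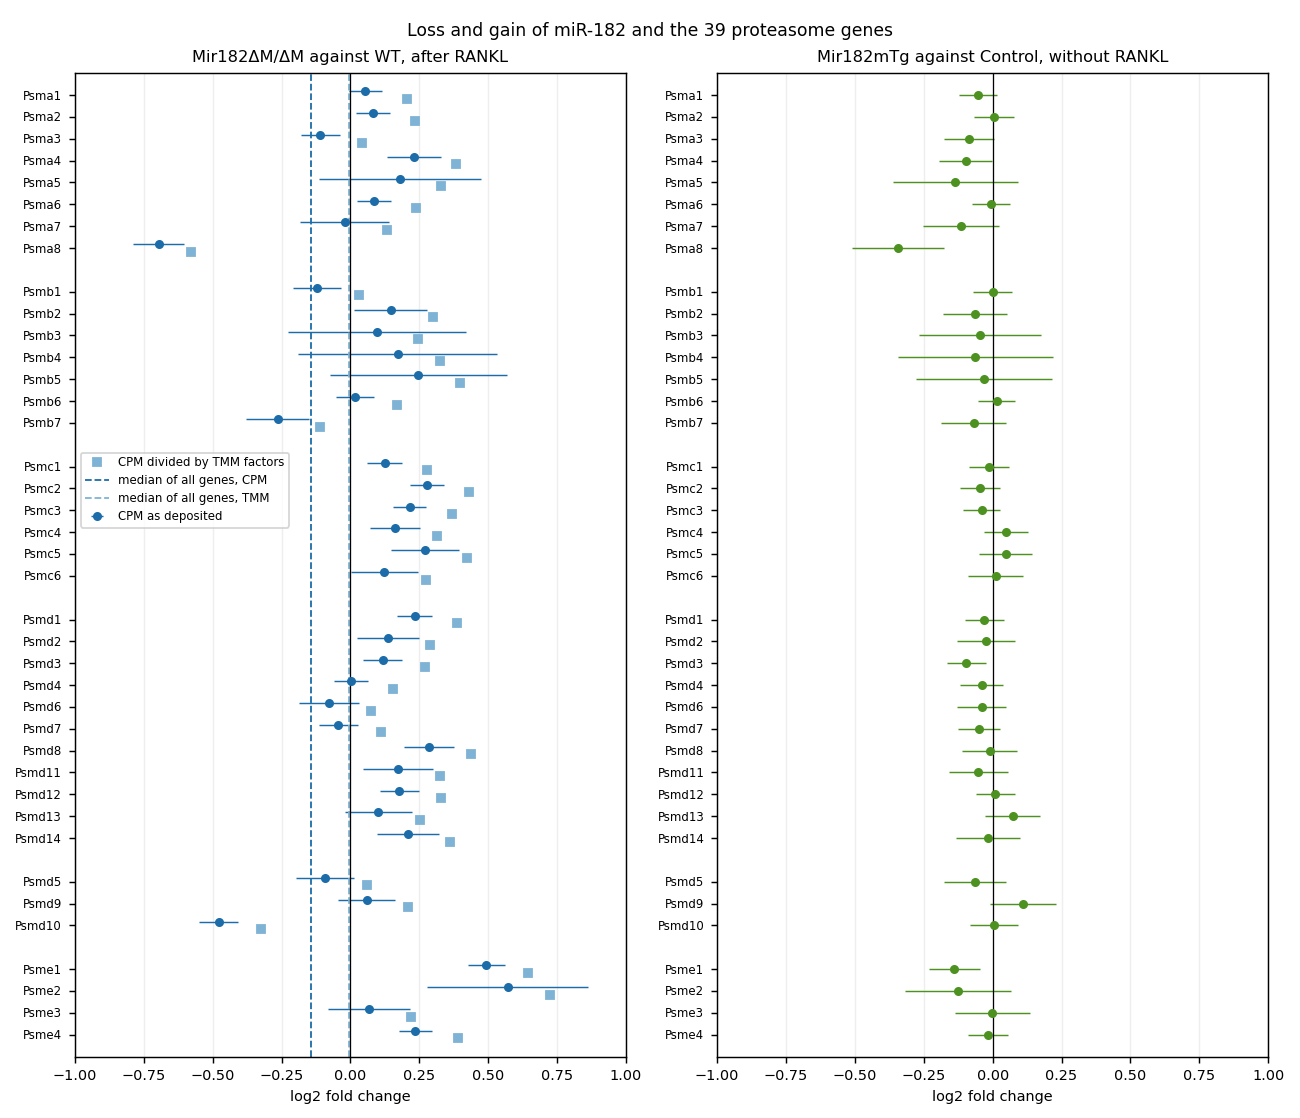
Log2 fold change (horizontal axis) of each of the 39 genes for Mir182ΔM/ΔM against WT with RANKL (left; circles with SE for CPM, squares for CPM divided by TMM factors, dashed lines for the median of all genes) and for Mir182mTg against Control (right, edgeR, with SE). On the left Psme1 and Psme2 lie farthest to the right and Psma8 and Psmd10 farthest to the left, and on the right the points apart from Psma8 lie between -0.14 and 0.11.

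Control and basal WT BMMs belong to separate experiments, and their values are set side by side without a test. Both Control libraries lay above both basal WT libraries for 30 of the 39 genes and below them for 3 (Psmd8, Psme1 and Psme4), where this held for 44.5% and 27.96% of all expressed genes. The 39 genes had a median ratio of 1.36 where that of all expressed genes was 1.09. Psme3 had the highest ratio, with 205 and 169 CPM in Control, beside 193 and 161 CPM in WT with RANKL. Psmd10 had 29.1 and 31.1 CPM in Control beside 26.9 and 27.5 in basal WT. The summed level of the 39 genes in Control (4972 and 5137 CPM) overlapped that of WT with RANKL (4740.3 and 4978 CPM).

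The other genes of the pathway were 30 genes of the lists that are analysed here, while Paaf1 was not used. With RANKL in WT, 17 of 30 rose and 3 fell, where 40.6% of all genes rose and 22% fell, and with TMM 9 rose and 3 fell (all genes 28.8% and 30.5%). On CPM, Psmb10, Psmg3 and Psmf1 were among the genes called higher there with the block and not without it (limma, adjusted p = 5.76e-06, 5.91e-06 and 0.00166 with the block). With TMM and the block Psmg3 was called (limma, adjusted p = 0.00142), while Psmb10 and Psmf1 were not (0.102 and 0.953). In Mir182ΔM/ΔM 16 rose and 3 fell on CPM (all genes 30.4% and 26.4%). Mir182ΔM/ΔM against WT with RANKL had 6 higher and 2 lower (all genes 14.3% and 30.9%). The interaction had 1 higher (Nfe2l1) and 1 lower (Ngly1), against 7.44% and 17.1% of all genes. The basal comparison had 0 of either (limma, all genes 2.71% and 1.1%), as had the Mir182mTg comparison (edgeR, all genes 0.0993% and 0.157%). The shuttle and unfolding factors that bring substrates (Rad23b and Ubqln1 among them) had 5 of 6 higher in WT on CPM and 3 with TMM, where Ubqln1 was lost (adjusted p = 0.132). The proteasome regulators Usp14, Uchl5 and Ube3c were among the 4 of 5 that rose there on CPM, and with TMM 1 did (Usp14), with adjusted p of 0.300 for Uchl5 and 0.113 for Ube3c. Of the 5 core assembly chaperones, Psmg1 and Psmg2 rose in both genotypes on CPM, and Psmg2 was not called in Mir182ΔM/ΔM with TMM (adjusted p = 0.0652). Of the 4 ubiquitin and E1 genes, 2 rose in WT (Rps27a, and Uba1 with adjusted p = 0.128 under TMM) and 3 in Mir182ΔM/ΔM (the same and Uba6, the latter with adjusted p = 0.0666 under TMM), and Uba1 and Uba6 were higher in Mir182ΔM/ΔM than in WT with RANKL. The last 19S genes, Adrm1 (Rpn13) and Shfm1 (Sem1), had opposite signs in WT, with 0.57 ± 0.074 and -0.39 ± 0.14 (adjusted p = 0.000435 and 0.0433).

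Of the 5 genes that control subunit transcription, Nfe2l1 (Nrf1) drives subunit genes when the proteasome is short, and Ngly1 processes it. Ngly1 was at 31.8 and 27.5 CPM in basal WT, 47.9 and 45.4 CPM in WT with RANKL, 28.3 and 25.7 CPM in basal Mir182ΔM/ΔM and 21.4 and 22.3 CPM in Mir182ΔM/ΔM with RANKL. It rose in WT (0.64 ± 0.10) and fell in Mir182ΔM/ΔM (-0.29 ± 0.10), with an interaction of -0.93 ± 0.14 and adjusted p = 0.00283. Nfe2l1 had the opposite signs: it was at 328 and 299.6 CPM basal and 269 and 250.01 CPM with RANKL in WT, and at 323 and 294 CPM basal and 351 and 321 CPM with RANKL in Mir182ΔM/ΔM. Its fall in WT was -0.27 ± 0.084 (adjusted p = 0.0251) and its value in Mir182ΔM/ΔM was 0.12 ± 0.084 (adjusted p = 0.242). The Nfe2l1 interaction was 0.40 ± 0.12, which passed the threshold only just (adjusted p = 0.0499). Nfe2l2 (Nrf2) fell with RANKL in both genotypes, by log2 fold changes of -0.73 ± 0.15 and -0.67 ± 0.15.

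The immunoproteasome genes encode subunits that take the places of those of Psmb5, Psmb6 and Psmb7. Per length, Psmb8, Psmb9 and Psmb10 made up 34.8% and 37.9% of the RNA of the 6 catalytic genes in basal WT, 37.9% and 39.4% in WT with RANKL, 39.4% and 41.8% in basal Mir182ΔM/ΔM, and 51.5% and 52.7% in Mir182ΔM/ΔM with RANKL. On CPM Psmb8 and Psmb10 were called higher in Mir182ΔM/ΔM than in WT with RANKL, beside Psme1. Psmb9 was at 67.5 and 84.0 CPM in Mir182ΔM/ΔM with RANKL and at 42.3 and 57.4 CPM in WT with RANKL, groups that do not overlap.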

How the data were processed

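Poly-A+ RNA from BMMs of 6 groups with 2 replicates each was sequenced, and reads were aligned to mm10 by the authors. Per the labels, replicate 1 was processed with TopHat and Cufflinks and replicate 2 with HISAT2, HTSeq and edgeR, whose versions are not given in the sources used here. For the 4 gain of function libraries the deposited values are raw read counts per gene, and for the 8 loss of function libraries they are CPM that the authors made from such counts. The files of replicate 1 also hold RPKM from the authors, used here only to obtain a length for each gene. Each CPM value was a whole number of reads within 0.01 reads (100.0% of values), so reads could be recovered. The floor of 3 reads covers counting error only.

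The 8 loss of function libraries were fitted together with limma 3.58.1 (R 4.3.3, trend) on log2(CPM + 1), for 11691 genes that reached 1 CPM in 2 or more of them, and fold changes of low genes are understated on this scale. The 4 gain of function libraries were fitted with edgeR 4.0.16 (TMM, filterByExpr, quasi-likelihood) for 12081 genes. P-values were adjusted over all genes tested with a threshold of 0.05 and no fold threshold. Alternatives were TMM factors or quantile normalization, a pseudocount of 0.1, other filters, only the 4 libraries compared, each library left out, the replicate number as a block, edgeR on the recovered reads, and for the gain of function libraries upper quartile factors, DESeq2 1.42.0, limma and no filter. edgeR on the recovered reads called 3536 of 12579 genes higher and 3679 lower with RANKL in WT, and 2481 higher and 2448 lower in Mir182ΔM/ΔM against WT with RANKL. Upper quartile factors with the block and TMM factors over the 12 libraries were added after seeing the data. The scripts were tested on simulated data with known changes.

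Libraries with the same replicate number deviated together from their group means, so the number was fitted as a block. The r was 0.690 to 0.754 over 6 pairs of groups in the loss of function experiment and 0.744 for 1 pair in the other. Between groups of different experiments r was 0.686 to 0.748 over 8 pairs. The block thus removes a difference that followed the replicate number in both experiments, and its source was not tested. The members, gene lists, markers and tests were chosen with earlier results of these data known. Values are given for the 3 catalytic subunits, the 4 activators, the called genes that changed most (up to 5 each way), and examples of each role. The pathway lists were the immunoproteasome, other 19S subunits, core assembly factors, regulators, transcription control, ubiquitin with its E1 enzymes, and shuttle factors; some genes of these lists are not reported here and enter no count. Sem1, Ecpas and Ufd1 were found under the older symbols Shfm1, AI314180 and Ufd1l. Promoters and the microRNA came from RefSeq (GRCm38.p6), and gene positions and 3′ UTRs from GENCODE vM21.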

Additional observations from a re-analysis of the deposited data

Results flagged for a closer look

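The RANKL response of 3 of the 39 genes differed between Mir182ΔM/ΔM and WT by the limma interaction on CPM. For Psme1 the RANKL log2 fold change in Mir182ΔM/ΔM minus that in WT was 0.4702 (adjusted p = 0.0116), with 0.53 in Mir182ΔM/ΔM and 0.064 in WT. For Psmd10 it was -0.4091 (adjusted p = 0.0231), with 1.37 and 1.77. For Psma8 it was -0.4546 (adjusted p = 0.0448), with 0.18 and 0.63. The Psme1 call was lost without basal Mir182ΔM/ΔM replicate 1, the Psmd10 call in 7 of 8 cases that left out a library, and the Psma8 call in 8 of 8. With TMM factors Psme1 was called (0.64) and Psmd10 (-0.24) and Psma8 (-0.32) were not.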

How the results depend on the processing

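For RANKL in WT, 20 of the 39 genes were higher and 0 lower on CPM (limma, 2 lower at an unadjusted p under 0.05). The counts were 9 higher and 3 lower with TMM factors and with edgeR on the recovered reads, 13 and 2 with quantile normalization, and 34 and 2 with the replicate block, while the block gave 24 higher and 6 lower both with TMM and with edgeR. Of all genes, 28.8% and 30.5% were called with TMM, 29.1% and 31.0% with quantile normalization, 52.8% and 29.0% with the block, and 39.6% and 40.3% with TMM and the block. Leaving out a library gave 16 to 20 higher. Under the block with TMM and the block with edgeR, Psmb6 was at -0.162 and -0.166 and Psme1 at -0.142 and -0.148, opposite in sign to their values on CPM. TMM factors lower every value of this comparison by about the shift of the median of all genes. For RANKL in Mir182ΔM/ΔM no alternative moved the count of 23 by over 1.5 times.

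For Mir182ΔM/ΔM against WT with RANKL, 6 were higher and 2 lower. The count higher was 16 with TMM and with edgeR, 24 with the block, and 32 with the block and TMM or edgeR (35.1% of all genes with TMM). It was 2 when only the 4 libraries compared were fitted (12.6% of all genes). Leaving out any of these 4 libraries lowered the count higher, and the share of all genes called higher was smaller too. With the block 5 were lower. Without RANKL, 0 were called on CPM, 9 higher and 1 lower with the block, and 5 higher and 1 lower with the block and TMM or edgeR.

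For the interaction, 1 was higher and 2 lower. The counts were 5 and 0 with TMM and with edgeR on the recovered reads, 11 and 6 with the block, 31 higher with the block and TMM or edgeR (27.1% of all genes with TMM), and 1 lower with the block and edgeR. Quantile normalization gave 0 lower (11.5% of all genes). A pseudocount of 0.1, no filter and at least 1 CPM in all 8 libraries gave 1 lower each (16.4%, 11.8% and 14.6% of all genes). Leaving out a library gave 0 to 1 higher and 0 to 1 lower. The Psme3 interaction was 0.133 and 0.138 with the block and TMM or edgeR, where that on CPM was -0.035. For Mir182mTg against Control, 0 were called lower and 1 with the block, also with upper quartile factors. The causes of these changes were not tested unless stated.

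Of the values of single genes under the alternatives, 785 kept their sign and their side of the threshold, 72 changed sign but were called neither before nor after, 44 passed the threshold newly, 46 lost it and 6 changed sign with a call. Psmb6 and Psme1 with RANKL in WT and the Psme3 interaction changed sign with TMM alone too, uncalled. By counting error Psma8 was the least precise of the genes, at 1.53 to 4.25 CPM.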
